A study of Mus musculus with 6 samples.

Results

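The outer segment and photoreceptor cilium genes are a set of 10 listed symbols, Prph2, Rom1, Prom1, Cdhr1, Rp1, Rp1l1, Rpgr, Rpgrip1, Fam161a and Eys, chosen by name. Of these, 9 matched a gene symbol among the 32285 genes counted, while Eys, a gene that rodents lack, matched none and was not analysed here. The study used snRNA-seq, which counts RNA molecules of single nuclei by unique molecular identifiers (UMIs), on 6 retina libraries of rd10 mice (B6.CXB1-Pde6b-rd10/J). All mice carried the rd10 allele of the rod phosphodiesterase gene Pde6b, which leads to rod death, and all retinas were taken at post-natal day (P) 20. The 3 saline control libraries (replicates 1, 2 and 6) came from eyes injected intravitreally with saline at P18, and the 3 IL-27 treated libraries (replicates 4, 5 and 10) from eyes given 20 ng of recombinant interleukin 27 at P18. No wild-type retina was analysed here, and the labels do not say whether each library came from a separate mouse, so the p-values measure the spread between these libraries.

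A photoreceptor builds its light-sensing outer segment as a modified cilium, a stack of membrane discs that stands on a connecting cilium and is held by a microtubule core, the axoneme. In rods, discs grow as folds at the base of the outer segment, close into a rim as they mature and are shed from the tip, so their proteins must be made throughout the life of the cell. Mutations in genes of this set are known causes of inherited photoreceptor degeneration, in rods, in cones or in both.

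The set holds 4 roles. Prph2 and Rom1 encode tetraspanins that shape the disc rim. Prom1 (prominin-1) and Cdhr1 (a photoreceptor cadherin) act where new discs form. Rp1 and Rp1l1 encode doublecortin-family proteins that bind the microtubules of the axoneme. Rpgr, Rpgrip1 and Fam161a encode proteins of the connecting cilium, where Rpgrip1 anchors Rpgr and Fam161a binds microtubules.

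On the mouse build GRCm38 (GENCODE M21 annotation) Prph2 (ENSMUSG00000023978) lies on the plus strand at chr17:46910459-46924933 and Rom1 on the minus strand at chr19:8927391-8929356. Cdhr1 (chr14:37077857-37098347, minus strand), Rp1l1 (chr14:63992506-64035025, plus strand) and Rpgrip1 (chr14:52110704-52163546, plus strand) share a chromosome. Prom1 spans chr5:43993620-44102032 and Rp1 spans chr1:3999557-4409241, both on the minus strand. Fam161a spans chr11:23007531-23030788 on the plus strand, and Rpgr spans chrX:10073621-10216920 on the minus strand of the X chromosome. The gene models differ in length from 1.97 kb for Rom1 to 409.7 kb for Rp1. Prom1 overlaps Gm42716 and Rpgr overlaps Srpx on the same strand, and both neighbours were counted as genes of their own. How reads of the shared stretches were assigned or lost was not tested. On the opposite strand, Prom1 overlaps Gm16401 and Rpgrip1 overlaps Supt16, and whether the counting used strand is not given in the sources used here.

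The sequences before the start sites are shown for 4 genes that stand for the forms of level across cell types described below: Prph2, high in rods, Cdhr1, as high in cones as in rods, Rpgrip1, high in both, and Rpgr, read in all neurons. RefSeq promoter sequences (GRCm38.p6) were held for 7 of the 9 genes, with none for Rp1 and Rp1l1. Capitals mark TAATC, the core bound by photoreceptor homeobox factors such as CRX, or TGCTGA, a half-site of the rod factor NRL, on either strand (GATTA and TCAGCA on the other). Each sequence reads 5′ to 3′ on the strand of its gene, and those of Prph2, Cdhr1 and Rpgr stop before the first annotated base of the gene. The Prph2 sequence is chr17:46910228-46910458 (plus strand), the Cdhr1 sequence chr14:37098348-37098597 (minus strand) and the Rpgr sequence chrX:10216921-10217045 (minus strand). For Rpgrip1, whose annotated gene starts upstream of the RefSeq start used, only the 30 bases around each match are shown, chr14:52110864-52110893 and chr14:52110778-52110807 (plus strand).
Prph2: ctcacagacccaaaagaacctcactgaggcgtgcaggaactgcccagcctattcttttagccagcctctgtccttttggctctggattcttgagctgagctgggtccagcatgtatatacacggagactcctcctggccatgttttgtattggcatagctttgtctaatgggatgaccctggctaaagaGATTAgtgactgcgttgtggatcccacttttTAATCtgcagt
Cdhr1: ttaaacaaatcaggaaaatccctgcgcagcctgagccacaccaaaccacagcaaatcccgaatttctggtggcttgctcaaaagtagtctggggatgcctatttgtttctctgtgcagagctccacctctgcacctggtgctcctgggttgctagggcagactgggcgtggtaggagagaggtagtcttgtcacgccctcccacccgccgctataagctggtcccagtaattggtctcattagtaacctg
Rpgr: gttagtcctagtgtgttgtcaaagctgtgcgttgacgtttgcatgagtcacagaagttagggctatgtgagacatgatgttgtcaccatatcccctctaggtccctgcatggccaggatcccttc
Rpgrip1 homeobox core: ctaaaaggcctgGATTAgtgtctcctctaa
Rpgrip1 NRL half-site: gtttctccaagtTCAGCAcgcgatgaggga

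In the 250 bases before each RefSeq start, TAATC was found for 3 of the 7 genes, Prph2, Prom1 and Rpgrip1, and TGCTGA for 1, Rpgrip1. No match overlapped another. Prph2 held 2 copies of TAATC, at -61 and -30 from the start by their first base, Rpgrip1 held 1 at -27, and Prom1 held 1 at -28 of its second start. Over all 27025 genes with a RefSeq promoter, 22.3% held TAATC and 18% held TGCTGA in such a window. Rom1, Cdhr1, Rpgr and Fam161a held neither set of letters in these windows. The matches are letters only and say nothing of binding.

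The libraries held 8968 to 9965 barcodes and 36678332 to 48260748 UMIs, and 52230 nuclei were retained. Clusters were named from fixed marker lists, which gave 15518 rods, 3332 cones, 9599 bipolar cells (BC), 12600 amacrine cells (AC) and 7 smaller types. A cluster of 676 nuclei that scored highest for the Muller glia markers was kept out of the Muller glia after its leading genes, Fbln1, Fam129a and Slc6a13, were seen. It held 229, 221 and 106 nuclei of the saline libraries and 12, 6 and 102 of the IL-27 libraries, and the Muller glia sums were not refitted with it. All 8 rod markers, such as Nrl and Sag, were higher in rods than in cones, and all 8 cone markers, such as Arr3 and Pde6c, were higher in cones. The same markers had named these clusters, so their order is no separate check of the names. Cones still held Gngt1, a rod transducin subunit, at 350.3 CPM (the UMIs of a gene scaled to the total UMIs of the sum) against 856 CPM in rods. Rod markers were read in every inner neuron type, that is BC, AC, horizontal cells (HC) and retinal ganglion cells (RGC). Sag (rod arrestin), which cones held at 2548 CPM, stood at 64.9 to 149.98 CPM per library over these types pooled. This pooled value was lowest in IL-27 library 5 and highest in IL-27 library 10. Library 10 also had the highest share of rods, 41.2% of nuclei against 23.8% to 32.7% in the other 5. Rods were shallow, with a median of 1187 to 1317 UMIs per nucleus against 2432 to 2810 in cones. Pairs of libraries shared 18 to 30 barcodes. Pde6b was read in rods at 985 to 1236 CPM, a level that does not check the point mutation of the rd10 allele.

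In rods, no gene of the set passed the test between IL-27 treated and saline control retinas. UMIs were summed over the rod nuclei of each library and tested with edgeR's quasi-likelihood test over 13255 genes. With Benjamini-Hochberg adjustment 0 of 9 passed 0.05, 0 of 9 had an unadjusted p under 0.05, and DESeq2 called 0. Over all genes tested in rods, 0.00754% passed the adjusted threshold and 3.35% the unadjusted one. In 0 of 9 genes did the libraries of the groups fall apart without overlap, against 8.49% of all genes. The fitted log2 fold changes (IL-27 minus saline) ran from -0.11 to 0.14, 4 above 0 and 5 below, with a median of -0.028 against -8.7e-05 over all genes. Every 95% interval lay between -0.35 and 0.34 on the log2 scale, each taken for its gene alone and not adjusted over the 9. The smallest adjusted p of the 9 was 0.9995 in the fit across all genes by edgeR.

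The disc rim genes overlapped between the groups in rods. Prph2 stood at 1069.9, 1096 and 1096 CPM in saline libraries 1, 2 and 6 and at 1119, 992 and 1152 CPM in IL-27 libraries 4, 5 and 10, the order kept below. The saline values lay inside the range of the IL-27 values, and the means were 1087 ± 14.97 and 1088 ± 84.3 CPM (SD, n = 3), a log2 fold change of 0.0047 (SE 0.092, 95% interval -0.19 to 0.20). Rom1, its partner at the rim, stood at 442, 419 and 382 CPM with saline and 449.6, 290.3 and 474 CPM with IL-27. IL-27 library 5 was the lowest and the groups overlapped, with a log2 fold change of -0.028 (SE 0.14, 95% interval -0.33 to 0.27). Without library 5 the Rom1 value turned to 0.16, still far from the threshold. In that library Sag and Gngt1 were also lowest among rods, at 3662 and 561 CPM against 4131 to 4312 and 769 to 1000.1 CPM in the others. The part of this in the Rom1 value was not tested.

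Of the disc assembly genes, Prom1 stood in rods at 1216, 1183 and 1136 CPM with saline and 1233, 1169.8 and 1403 CPM with IL-27. IL-27 library 10 was the highest, and library 5 lay inside the saline range, giving a log2 fold change of 0.11 (SE 0.092, 95% interval -0.085 to 0.30). Cdhr1 stood at 253, 251 and 216 CPM with saline and 253, 229 and 193 CPM with IL-27. Here IL-27 library 10 was the lowest and IL-27 library 4 the highest, so the IL-27 values enclosed the saline values, with a log2 fold change of -0.089 (SE 0.12, 95% interval -0.34 to 0.16).

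Of the axoneme genes, Rp1 had the change furthest from 0 in rods. It stood at 1816, 1869 and 1608 CPM with saline and 1952, 1833 and 2035 CPM with IL-27. Saline library 6 was the lowest and IL-27 library 5 lay between the saline values, so the groups overlapped, with a log2 fold change of 0.14 (SE 0.092, 95% interval -0.054 to 0.34) and an unadjusted p of 0.145 in the edgeR fit. Its relative Rp1l1 stood at 283, 269 and 273 CPM with saline and 272, 279.9 and 213 CPM with IL-27. All values but that of IL-27 library 10 lay within 269 to 283 CPM, and the fit gave a log2 fold change of -0.11 (SE 0.12, 95% interval -0.35 to 0.14).

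Of the connecting cilium genes, Rpgrip1 was the most abundant of the 9 by CPM and stood in rods at 2734, 2674 and 2539.6 CPM with saline and 2946, 2515 and 2217 CPM with IL-27. The IL-27 libraries held both the highest and the lowest value, with a log2 fold change of -0.043 (SE 0.11, 95% interval -0.27 to 0.19). Rpgr stood at 252, 254 and 231 CPM with saline and 276, 249.99 and 231 CPM with IL-27, with overlapping groups and a log2 fold change of 0.044 (SE 0.11, 95% interval -0.18 to 0.27). Fam161a stood at 448, 446 and 458 CPM with saline and 501, 384 and 395 CPM with IL-27. The saline values of Fam161a lay close together, IL-27 library 4 lay above them and libraries 5 and 10 below, with a log2 fold change of -0.072 (SE 0.11, 95% interval -0.31 to 0.17). Without library 4 the value was -0.22, without library 5 -0.0033 and without library 10 -0.0052.

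**Figure D1:**
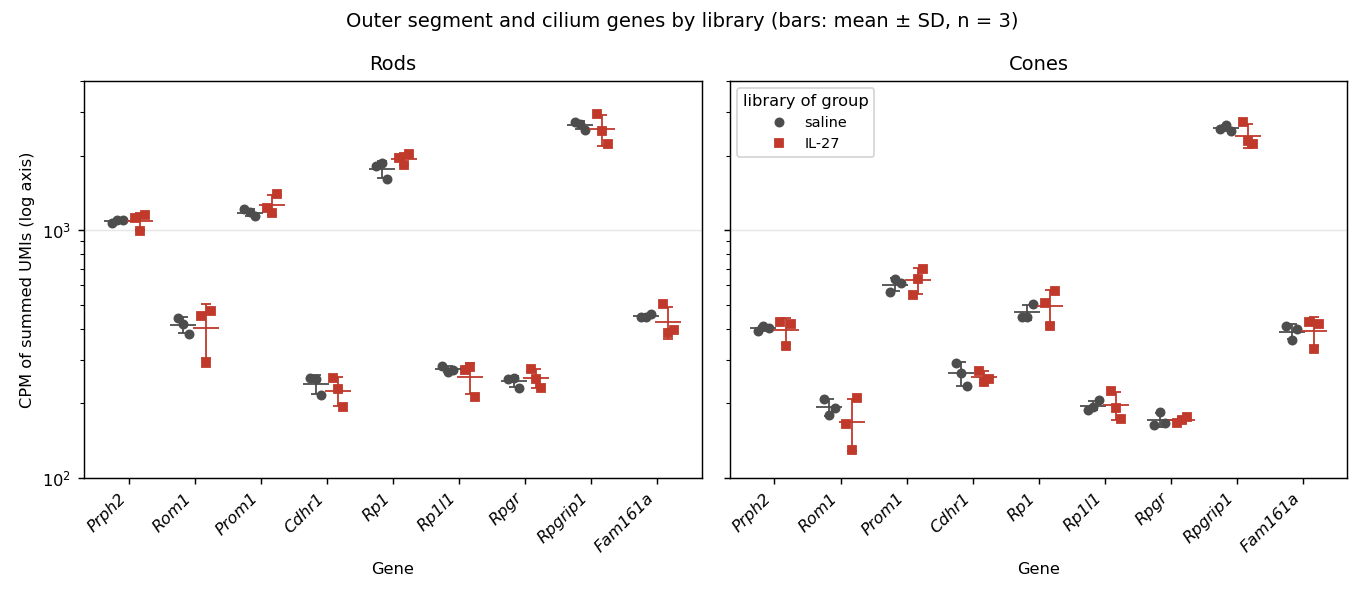
CPM of the summed UMIs (log axis) of the 9 genes in rods and cones; each point is 1 library, grey circles saline and red squares IL-27, with mean ± SD (n = 3). The groups overlap for all 9 genes in both types, and Rom1 is lowest in IL-27 library 5 in both.

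In cones, likewise, no gene of the set passed the test. edgeR tested 10702 genes over the cone sums, and 0 of 9 passed the adjusted threshold, 0 of 9 had an unadjusted p under 0.05 and DESeq2 called 0. Over all genes tested in cones, 0% passed the adjusted and 3.6% the unadjusted threshold. The groups did not fall apart without overlap for any of the 9, against 9.16% of all genes. The log2 fold changes ran from -0.20 to 0.092, 5 above 0 and 4 below, with a median of 0.0028 against 0.0053 over all genes, and the intervals lay between -0.50 and 0.36.

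Rom1 had the lowest value of these in cones, at 209, 179 and 191 CPM with saline and 165, 129 and 209.8 CPM with IL-27. IL-27 library 5 was again the lowest and IL-27 library 10 the highest, with a log2 fold change of -0.20 (SE 0.15, 95% interval -0.50 to 0.11). The value rested on these libraries, as it was -0.054 without library 5 and -0.36 without library 10. Prph2 stood at 393, 411 and 403 CPM with saline and 426, 341 and 416 CPM with IL-27, with library 5 below and libraries 4 and 10 above all saline values. Its fit gave a log2 fold change of -0.019 (SE 0.12, 95% interval -0.27 to 0.24).

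Prom1 stood in cones at 563, 635 and 611 CPM with saline and 549, 636 and 698 CPM with IL-27, which enclosed the saline values, with a log2 fold change of 0.063 (SE 0.12, 95% interval -0.19 to 0.32). Cdhr1 stood at 292, 265 and 235 CPM with saline and 271, 244 and 249.6 CPM with IL-27. For Cdhr1 it was the saline libraries that held the highest and the lowest value, with a log2 fold change of -0.042 (SE 0.12, 95% interval -0.30 to 0.22). Rp1 stood at 448, 446 and 505 CPM with saline and 507, 411 and 566 CPM with IL-27, with library 5 lowest and library 10 highest and a log2 fold change of 0.092 (SE 0.13, 95% interval -0.18 to 0.36). Rp1l1 stood at 188, 194 and 205 CPM with saline and 225, 192 and 173 CPM with IL-27, the IL-27 values again enclosing the saline values.

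Among the cilium genes in cones, Rpgrip1 stood at 2572, 2662 and 2521 CPM with saline and 2721, 2283 and 2228 CPM with IL-27. IL-27 libraries 5 and 10 were below all saline libraries and library 4 above them, with a log2 fold change of -0.090 (SE 0.13, 95% interval -0.36 to 0.18). Rpgr had the smallest SD of the 9 relative to its mean, at 164 to 184 CPM over the 6 libraries, with means of 172 ± 10.6 (saline) and 171 ± 4.58 CPM (IL-27, SD, n = 3). Fam161a stood at 409, 359 and 401 CPM with saline and 426, 333 and 419 CPM with IL-27, lowest in library 5 and highest in library 4, and overlapping.

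The effects in rods and cones were then compared in 1 fit, with the library as a block, since both types came from the same libraries. For 0 of 9 genes did the effect in cones differ from that in rods by edgeR with adjustment over 13281 genes, against 0.0301% of all genes, and DESeq2 called 0. At an unadjusted p under 0.05 there were also 0 of 9, against 3.86% of all genes. The differences (cone effect minus rod effect) ran from -0.17 for Rom1 (SE 0.11, 95% interval -0.40 to 0.062) to 0.12 for Rp1l1 (SE 0.11, interval -0.11 to 0.35) on the log2 scale. All intervals held 0.

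**Figure D2:**
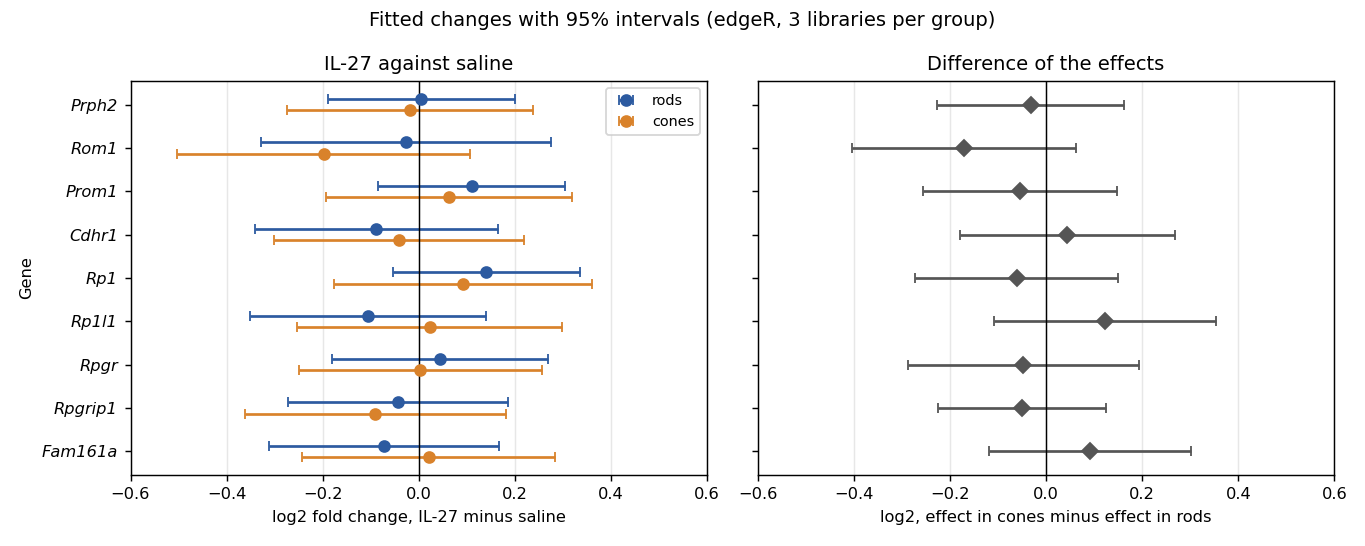
Left, log2 fold change of IL-27 against saline for each gene in rods (blue) and cones (orange); right, the effect in cones minus that in rods; bars are 95% intervals of the edgeR fits (3 libraries per group). Every interval includes 0, and all lie within -0.50 to 0.36.

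Rods and cones shared the set but in unequal measure. Within each library, Rp1 was higher in rods than in cones by a log2 ratio of 1.95 ± 0.17 (SD, n = 6 libraries), a mean of 3.87-fold. Prph2 (1.45 ± 0.052), Rom1 (1.18 ± 0.15) and Prom1 (0.99 ± 0.12) followed on the same log2 scale, all higher in rods in 6 of 6 libraries. Rpgr (0.54 ± 0.12) and Rp1l1 (0.43 ± 0.13) were also higher in rods in 6 of 6, by less. Fam161a (0.17 ± 0.14) and Rpgrip1 (0.059 ± 0.063) were higher in rods in 5 of 6. Cdhr1 was lower in rods in 6 of 6 libraries, at -0.16 ± 0.11. The rod markers reached 3.57 for Cnga1, the rod channel subunit, and 0.70 for Sag, rod arrestin. These are levels of clusters of the same nuclei and are given as a description, with no test. The relatives Rp1 and Rp1l1 thus lay further apart on this scale than the rim partners Prph2 and Rom1.

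**Figure D3:**
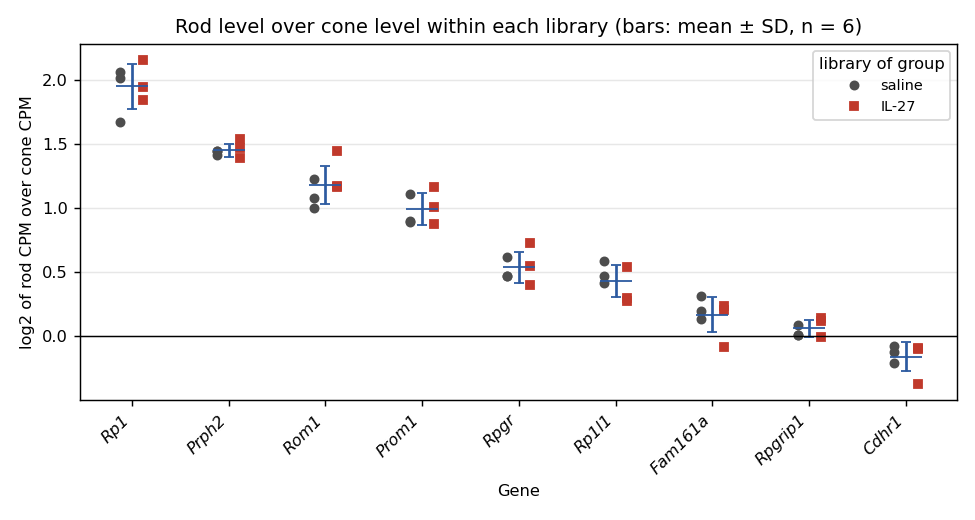
log2 of the CPM in rods over the CPM in cones of the same library for each gene, ordered by the mean; points are libraries (grey saline, red IL-27) and bars the mean ± SD (n = 6). Rp1 lies highest, Rpgrip1 and Fam161a lie near 0, and Cdhr1 lies below 0 in all 6 libraries.

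Set against gene length, the order of the levels in rods changed. Per kb of gene span, Rom1 was highest at 208 CPM per kb, followed by Prph2 at 75.1 and Rpgrip1 at 49.3 CPM per kb. Fam161a (18.9), Cdhr1 (11.3) and Prom1 (11.3) stood lower, and Rp1l1 (6.23), Rp1 (4.52) and Rpgr (1.74 CPM per kb) lowest. The span and not the spliced length was used because RNA of nuclei can be unspliced, but the unspliced share was not measured. Each molecule is counted once by its UMI, so the count of a gene need not grow with its length. The order per kb thus depends on the divisor and is not a ranking of levels corrected for length.

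Across the 11 cell types, rods ranked first for 8 of the 9 genes by mean CPM over the 6 libraries, and cones for Cdhr1. For Prph2 rods stood at 1088 ± 54.2 CPM (SD, n = 6) and cones at 398 ± 30.4, apart from each other in every library. Below them came pericytes (109 ± 125) and endothelial cells (105 ± 46.2), then microglia (75.7 ± 22.3), BC (70.7 ± 9.35), astrocytes (42.9 ± 17.4), Muller glia (30.7 ± 7.89), AC (30.1 ± 7.36), HC (18.9 ± 7.84) and RGC (16.3 ± 4.21 CPM). From pericytes down, each neighbour overlapped the next. The 8 rod markers were also read in these types, and their part in the low levels was not tested. Prph2 in BC stood at 6.48% of its rod level, and the rod markers there at 3.42 to 15.1% of theirs. In RGC Prph2 stood at 1.49%, and the rod markers at 1.40 to 5.27%.

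Rp1 and Rp1l1 had the same form. Rp1 stood at 1852 ± 145 CPM in rods, 481 ± 55.98 in cones, 174 ± 46.7 in endothelial cells and 24.8 ± 4.83 CPM in RGC, the lowest type. Rp1l1 stood at 265 ± 26.1 CPM in rods and 196 ± 17.4 in cones, whose ranges overlapped, and at 2.83 (HC) to 26.01 CPM (endothelial cells) elsewhere. In 0 of 9 types other than rods and cones did Prph2, Rp1, Rp1l1, Cdhr1 or Rpgrip1 exceed, as a share of its rod level, the highest of the 8 rod markers.

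Cdhr1 stood at 259 ± 20.8 CPM in cones and 232 ± 24.6 in rods, with overlapping ranges, and at 4.25 (HC) to 40.1 CPM (endothelial cells) in the other types. Rpgrip1 stood at 2604 ± 245 CPM in rods and 2498 ± 201 in cones, also overlapping. BC came next for Rpgrip1 at 287 ± 13.9 CPM, apart from AC at 57.01 ± 10.4. Fam161a stood at 439 ± 43.1 CPM in rods, 391 ± 37.1 in cones and 67.5 ± 5.32 in BC, with 16.4 ± 2.43 in AC. As a share of the rod level, Fam161a in BC (15.5%) lay just above the highest rod marker there.

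Rom1 stood at 409 ± 66.1 CPM in rods and 181 ± 30.4 in cones, whose range met that of endothelial cells. It exceeded every rod marker, as a share of the rod level, in 4 of 9 other types by a small margin, in BC for example at 18.9% against at most 15.1%.

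Prom1 stood at 1224 ± 94.4 CPM in rods and 615 ± 54.4 in cones, apart from each other, then at 192 ± 44.8 in endothelial cells and 144 ± 6.99 in AC. AC exceeded every rod marker as a share of the rod level, at 11.8% against at most 9.33%, and were the only type of the 9 to do so for Prom1.

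Rpgr was spread more widely over the neurons. It stood at 249 ± 16.7 CPM in rods, 171 ± 7.29 in cones, 169 ± 3.58 in BC, 139.8 ± 3.87 in AC, 99.3 ± 4.99 in RGC and 85.7 ± 15.1 CPM in HC. Cones and BC overlapped, and so did RGC and HC, while BC and AC, and AC and RGC, were apart in all 6 libraries. Glia and vascular cells came last, from 47.7 ± 15.7 in astrocytes to 31.3 ± 11.4 CPM in microglia. In RGC Rpgr stood at 40.01% of its rod level while the 8 rod markers stood at 1.40 to 5.27%. Of all retained nuclei's Rpgr UMIs, 18.3% came from rods, 36.3% from AC and 25.2% from BC (means of 6 libraries), against 72.6%, 6.14% and 5.61% for Rp1.

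The share of nuclei with at least 1 UMI depends on depth. Rpgr was read in 25.4% of rods (exact 95% interval 24.7 to 26.1, median 1250 UMIs) and in 50.3% of AC (interval 49.4 to 51.2, median 5531 UMIs). After each nucleus was thinned to 1000 UMIs, which left out 3796 rods of 14338 and no AC, the shares were 20.9% and 12.5%. Prph2 was read in 70.2% of rods, 60.8% of cones and 14.03% of RGC, which should lack it (median 9930 UMIs), and after thinning in 64.2%, 31.7% and 1.77%. Rpgrip1 was read in 88.96% of rods, 98.7% of cones and 26.3% of RGC, and after thinning in 88.8%, 89.2% and 4.21%. The intervals cover counting error only.

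**Figure D4:**
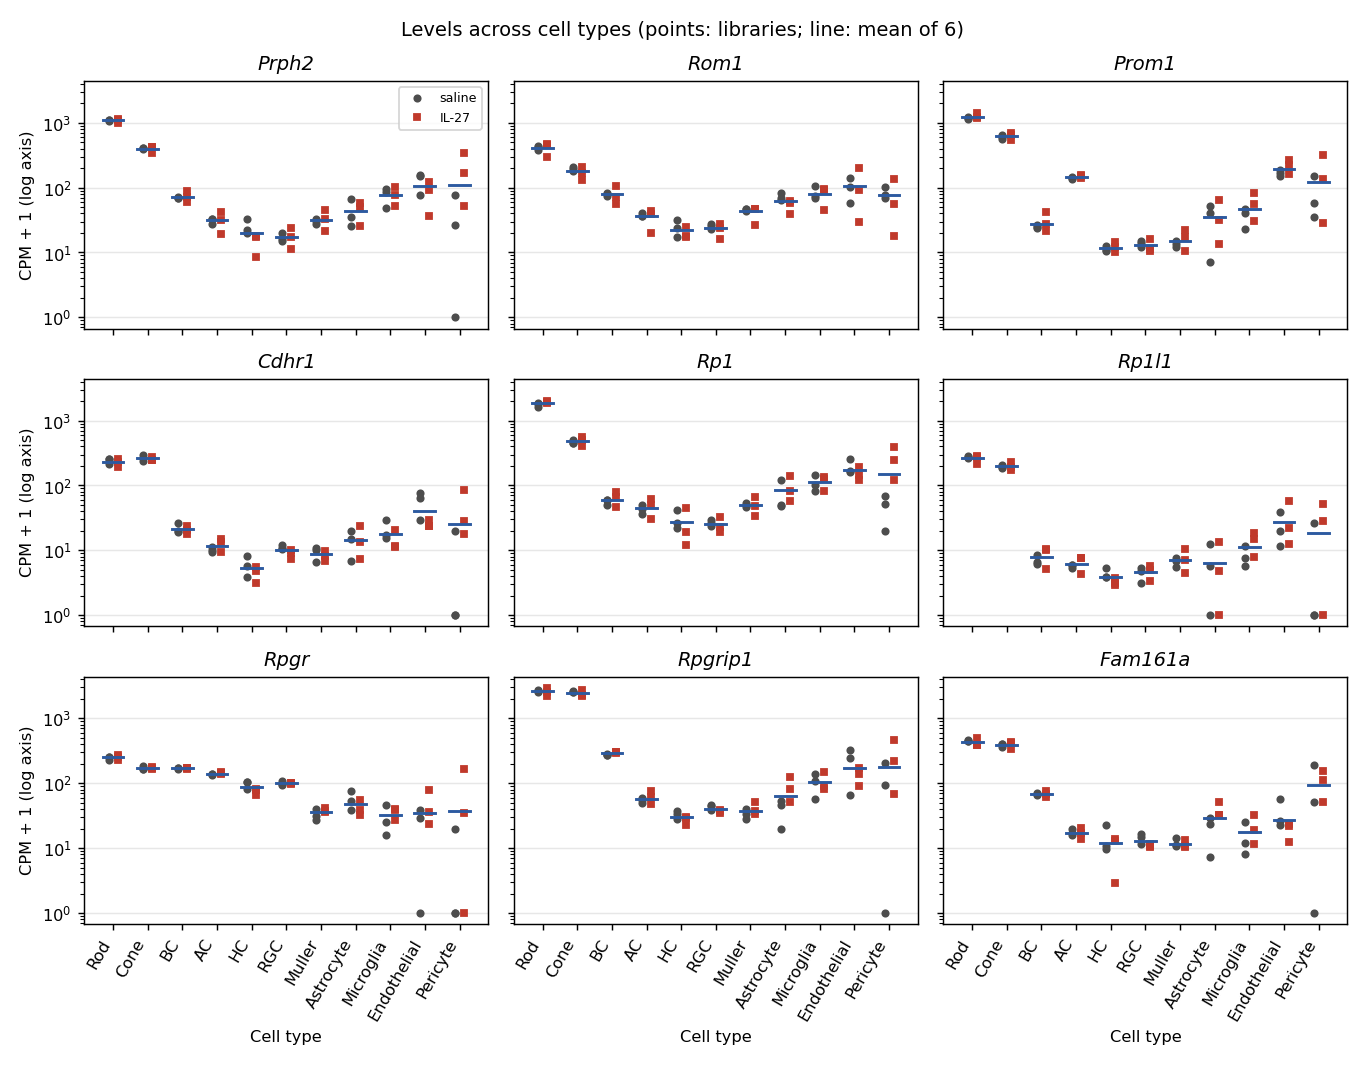
CPM + 1 (log axis) of each gene in the 11 cell types; points are libraries (grey saline, red IL-27) and blue lines the mean of 6. By their means rods and cones stand above the other types for all 9 genes, and Rpgr stays near 99.3 CPM or above in BC, AC and RGC.

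Prom1 and Rpgrip1 had a further site of high level among the inner neurons, seen when types were split into clusters (the genes of the set had been left out of the clustering, and the clusters below were picked after their values were seen). Prom1 stood at 144 ± 6.99 CPM over all AC, and was highest in 1 of 14 AC clusters, led by Esr1, Spink13, Spink10 and Angpt1. In these 824 nuclei Prom1 stood at 1519, 1463 and 1460.01 CPM with saline and 1503, 1457 and 1487 CPM with IL-27. The mean was 120.2% of the level in rods, while the 8 rod markers in this cluster stood at 3.13 to 11.9% of theirs. Prom1 was read in 818 of these 824 nuclei (99.3%, exact 95% interval 98.4 to 99.7). The next AC clusters, led by Nrg1 and Kcnh1 and by Nxph2 and Npsr1, had 236 ± 12.95 CPM and 145 ± 14.03 CPM (SD, n = 6), and the lowest, led by 8030451A03Rik and Fgd6, had 13.2 ± 2.68 CPM.

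Rpgrip1 had such a site among the BC. In the cluster led by Grik1, Otor, Lama2 and Trpc7 (1065 nuclei) it stood at 1432, 1573 and 1379 CPM with saline and 1580.2, 1568 and 1308 CPM with IL-27. That was 56.4% of the rod level, against 3.68 to 15.8% for the rod markers, and 93.99% of the nuclei held a UMI. The BC cluster led by Sema3d and Reln followed at 571 ± 107 CPM, and the largest, led by Gm30725, Car8 and Trpm1, a channel gene of ON bipolar cells, was lowest at 40.03 ± 7.32 CPM. Fam161a also varied among BC clusters, from 38.3 ± 5.63 CPM in that largest cluster to 129.7 ± 29.1 CPM in the one led by Neto1 and Nxph1. Rpgr ranged across BC clusters from 124 to 209.7 CPM.

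**Figure D5:**
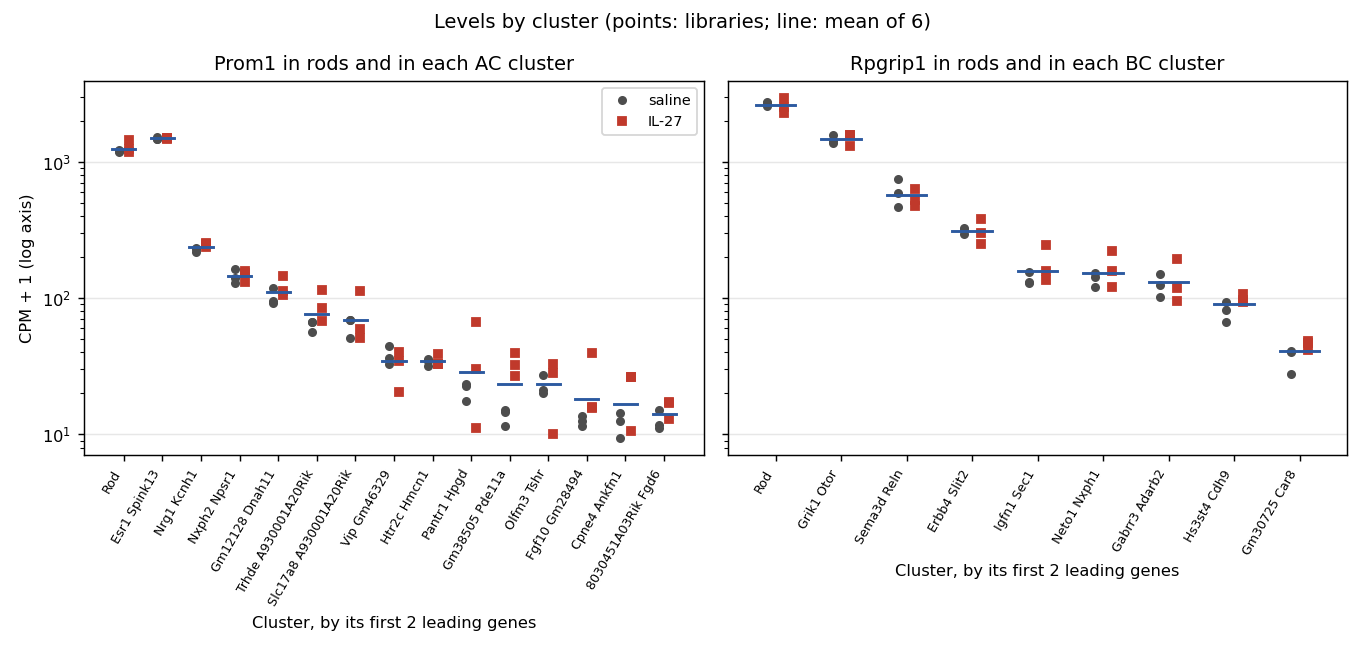
CPM + 1 (log axis) of Prom1 in rods and each AC cluster (left) and of Rpgrip1 in rods and each BC cluster (right), clusters named by their first 2 leading genes; points are libraries (grey saline, red IL-27) and blue lines the mean of 6. Prom1 reaches 1482 CPM in the Esr1 cluster and Rpgrip1 1473 CPM in the Grik1 cluster.

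Outside the photoreceptors 0 genes of the set passed an adjusted p of 0.05 between the groups by edgeR, or by DESeq2. In BC, AC, RGC and Muller glia all 9 genes were tested, in microglia 6, in HC 5, in endothelial cells 4, in astrocytes 2 and in pericytes 0, the others being too low for the filter. The share of all genes called was 0.00591% in AC, 0.0369% in Muller glia, 0.111% in pericytes and 0% in BC, HC, RGC, microglia, astrocytes and endothelial cells. At an unadjusted p under 0.05 there were 0 of 9 in BC (3.35% of all genes), AC (2.87%), RGC (3.17%) and Muller glia (5.05%), and 0 in microglia (3.03%), astrocytes (3.99%) and endothelial cells (2.98%), while pericytes had none to test (4.68%). The one gene below that level was Prph2 in HC, 1 of 5 genes there against 4.83% of all genes, in edgeR's test. It stood at 31.7, 19.1 and 21.6 CPM with saline and 16.4, 7.66 and 17.1 CPM with IL-27 (61 and 34 UMIs in all), without overlap, with a log2 fold change of -0.88 (SE 0.35, 95% interval -1.61 to -0.16) and an adjusted p of 0.968 by edgeR. The rod markers stood in HC at 1.57 to 5.48% of their rod level and Prph2 at 1.73%, and the part of rod RNA in this value was not tested.

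Non-overlapping libraries were seen for 1 of 9 genes in BC (all genes 8.86%), 1 of 9 in RGC (8.73%), 1 of 5 in HC (9.62%) and 1 of 2 in astrocytes (8.93%). The gene in BC was Rpgrip1, at 268, 283 and 277 CPM with saline and 290.3, 299 and 305 CPM with IL-27, with a log2 fold change of 0.13 (SE 0.066, 95% interval -0.017 to 0.27) and an adjusted p of 0.9998 by edgeR. In RGC it was Cdhr1, at 6.40 to 11.2 CPM and lower with IL-27, in HC Prph2 and in astrocytes Rom1, none past the threshold. The groups overlapped for every gene tested in AC (all genes 8.23%), Muller glia (10.6%), microglia (7.83%) and endothelial cells (7.48%). In pericytes, Rp1 was too low to be tested, with 5 UMIs in the saline and 39 in the IL-27 libraries, at 68.1, 18.7 and 50.5 CPM with saline and 248, 119.7 and 387 CPM with IL-27. These did not overlap, beside 9.14% of the genes that passed the filter there, which Rp1 did not, and came from 12 to 25 nuclei a library. Of the other genes too low to be tested, Fam161a in astrocytes (11 UMIs with saline, 23 with IL-27) and Rp1l1 in HC (8 and 6) did not overlap either. In the pericyte sums all 9 genes had more raw UMIs in the IL-27 than in the saline libraries. Among them were Prph2 with 29 against 5, Rpgrip1 with 40 against 13, Prom1 with 28 against 10 and Cdhr1 with 7 against 1. For these 4 the libraries overlapped. Raw UMIs are not scaled to the total of each sum. By mean CPM Rom1 was lower with IL-27, at 69.0 against 81.3 CPM, and the others were higher. Of the 897 genes tested in pericytes, 51.8% had a log2 fold change above 0. Over the 6 libraries Rp1 in pericytes stood at 7.70% of its rod level, and the 8 rod markers at 7.45 to 24.8% of theirs. The part of rod RNA in these values was not tested.

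The genes whose levels over the means of the 11 types were most like those of the set were looked up among all genes. Pearson's r was taken on log2(CPM + 1) among 15213 genes and is a description over 11 points that share libraries and differ in depth. Rp1 was most like Pdc (phosducin, r = 0.995), Hmgn1 (0.991) and Pde6g (a subunit of rod phosphodiesterase, 0.990). Prph2 was most like Hmgn1 (0.993), Tma7 (0.987) and Rp1 (0.986), and Rom1 like Ddb1 (0.988), Unc119 (a carrier of lipidated cargo, 0.986) and Prph2 (0.982). Rp1l1 was most like Aipl1 (a chaperone of phosphodiesterase, 0.993), Gm15983 (0.993) and Sag (0.992). Cdhr1 was most like Gm15983 (0.992) and also like Rp1l1 (0.982).

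Among the genes like Rpgrip1 were the transcription factor gene Neurod1 (0.991) and Abca4 (a lipid flippase of the disc rim, 0.990). Fam161a was most like Ano2, a chloride channel gene (0.979), 5330413P13Rik (0.977) and Abca4 (0.976). Prom1, with its AC cluster, was like Doc2b (0.966), Gm42716 (0.965), which overlaps it on the same strand, and Ccpg1 (0.953). Rpgr was most like Pclo, which encodes the presynaptic protein piccolo (0.985), Doc2g (0.954) and Ankef1 (0.953). Between members, r ran from 0.314 (Rom1 and Rpgr) to 0.986 (Prph2 and Rp1), and the 8 pairs with Rpgr were the 8 lowest of 36.

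A wider list of 95 genes of discs, transition zone, intraflagellar transport, the BBSome, cargo trafficking, Usher proteins and tubulin glutamylation was read from the same fits. In rods 91 were tested, 43 above 0 and 48 below, and 0 passed the adjusted threshold by edgeR or DESeq2. Their median log2 fold change was -0.0061 against -8.7e-05 over all genes. At an unadjusted p under 0.05, 1 was higher with IL-27 (all genes 1.74%) and 1 lower (1.61%). The higher one was B9d1, of the transition zone, at 11.6, 15.6 and 15.8 CPM with saline and 17.8, 19.9 and 19.7 CPM with IL-27 (log2 fold change 0.41, SE 0.19). The lower was Kif17, a kinesin of intraflagellar transport, at 6.16, 4.59 and 8.52 CPM with saline and 4.58, 2.91 and 3.20 CPM with IL-27 (log2 fold change -0.80, SE 0.35). Both had an adjusted p of 0.9995 by edgeR.

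Among the next by p in rods were Poc1b, of the centriole, above 0 (log2 fold change 0.17, SE 0.10), and the transport genes Ift20 and Ift46, both below 0 (log2 fold change -0.25, SE 0.12, and log2 fold change -0.31, SE 0.15). The groups did not overlap for any of these 5 genes, beside 8.49% of all genes in rods, and the 5 had been chosen by p. By group, 15 of 25 intraflagellar transport genes lay below 0 in rods, 14 of 28 transition zone and basal body genes, 6 of 12 BBSome genes and 5 of 7 disc genes. In the remaining groups 4 of 9 cargo trafficking genes, 3 of 7 Usher genes and 1 of 3 tubulin glutamylation genes lay below 0. Over all genes tested in rods, 49.96% lay above 0.

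In cones 85 of the wider list were tested, 44 above 0 and 41 below, with 0 past the adjusted threshold by edgeR or DESeq2 and a median log2 fold change of 0.0091 against 0.0053 over all genes. At an unadjusted p under 0.05, 3 were higher with IL-27 (all genes 1.77%) and 0 lower (1.83%). Rd3, an inhibitor of retinal guanylyl cyclase, stood at 43.8, 43.3 and 42.01 CPM with saline and 51.6, 56.2 and 67.6 CPM with IL-27 (log2 fold change 0.44, SE 0.17). Poc1b stood at 60.7, 62.5 and 63.01 CPM with saline and 76.2, 85.03 and 69.1 CPM with IL-27 (log2 fold change 0.32, SE 0.15). Bbs4, of the BBSome, was the other one (log2 fold change 0.33, SE 0.15). The 3 below 0 with the smallest p were Arl3, a GTPase that releases lipidated cargo (log2 fold change -0.23, SE 0.12), Pcare, of disc formation (log2 fold change -0.25, SE 0.14), and Lca5, which encodes the ciliary protein lebercilin (log2 fold change -0.25, SE 0.14). The groups did not overlap for Rd3, Poc1b, Arl3 and Pcare and overlapped for Bbs4 and Lca5, beside 9.16% of all genes in cones without overlap, and these genes had been chosen by p.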

How the data were processed

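Nuclei were isolated from frozen rd10 retina and profiled on a droplet platform. The deposited counts are UMI counts per gene and barcode, which the authors made with Cell Ranger, given as 9.0.1 in the submitters' processing notes and 8.0.1 in the file headers, and filtered to called barcodes. The reference was the mouse reference of 10x Genomics, whose version, like the use of strand, is not given in the sources used here, and the 9 gene IDs were matched to GENCODE M21. A nucleus was kept if it had over 500 UMIs, 200 genes or more and a mitochondrial share below 5%, and Scrublet (scanpy 1.11.5, expected rate 8%) removed 3975 doublets. Clusters came from 2000 variable genes, without the set and the wider list, 25 components, 20 neighbours and Louvain at a resolution of 0.25 (igraph 0.11.9), and were named from marker lists. No correction for background RNA was applied. UMIs were summed per library and type without nuclei whose log2 UMI count lay further than 2 MADs (median absolute deviations) from the centre of their type. Sums were tested with edgeR 4.0.16 (TMM, filterByExpr minimum 10, quasi-likelihood, Benjamini-Hochberg, 3 against 3 libraries, two-sided), with DESeq2 1.42.0 as an alternative. Intervals on shares are exact (Clopper-Pearson). On simulated counts with a log2 change of 1.5 in 200 genes, the rod fit recovered 95% of them among 13221 genes, the cone fit 93.5% among 10646 and the comparison of both 72.5% among 13212. False calls numbered 12, 13 and 7. The simulation gave all genes the same dispersion, and recovery of smaller changes, such as those fitted for the set, was not tested. Sums held 2408115 to 4373275 UMIs in rods and 1258234 to 1627684 in cones. Named genes were all members, the 3 of the wider list with the smallest p per direction in rods and in cones, and the 3 genes most correlated with each member over types, among genes of at least 10 CPM in 1 type. Some genes that these rules cover are not reported here. The members and lists were chosen with earlier results of these data known. Alternatives changed the tool, the scaling, the filter, the nuclei and the clustering, and left out each library.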

Additional observations from a re-analysis of the deposited data

How the results depend on the processing

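The count of 0 called genes of the set in rods, in cones and in the comparison of the 2, and of the wider list in rods and in cones, held under all 11 alternatives (DESeq2, its size factors, library totals, no filter or a minimum of 50 counts, all nuclei, nuclei of at least 1000 UMIs, no doublet removal, under 1% mitochondrial counts, a resolution of 0.5, and the genes kept in the clustering) and without each library in turn. The adjusted p of the member with the smallest p ranged over these from 0.706 to 0.99995 in rods and from 0.890 to 0.99998 in cones (edgeR, or DESeq2 under its own setting). In the other cell types the count was 0 under the 11 alternatives but 1 without saline replicate 6, Rp1 in pericytes (log2 fold change 2.80, SE 0.78, edgeR adjusted p 0.0381), where the sums hold 12 to 25 nuclei a library and fewer samples let more genes pass the filter. The share of all genes called in that fit is not reported here. Rp1 in pericytes lay within the span of the 8 rod markers as a share of the rod level, and the part of rod RNA in this call was not tested. Several changes near 0 turned sign. Without each library in turn the log2 fold changes in rods ranged as follows: Prph2 -0.029 to 0.065, Rom1 -0.14 to 0.16, Prom1 0.046 to 0.16, Cdhr1 -0.20 to 0.026, Rp1 0.082 to 0.19, Rp1l1 -0.18 to 0.022, Rpgr -0.040 to 0.12, Rpgrip1 -0.17 to 0.062, Fam161a -0.22 to -0.0033. In cones they ranged thus: Prph2 -0.091 to 0.067, Rom1 -0.36 to -0.054, Prom1 0.0034 to 0.14, Cdhr1 -0.12 to 0.027, Rp1 0.0099 to 0.20, Rp1l1 -0.10 to 0.12, Rpgr -0.039 to 0.060, Rpgrip1 -0.20 to -0.017, Fam161a -0.056 to 0.12. Other turns of sign were Rpgr in cones with DESeq2 (-0.0019), library totals (-0.00531), no filter (-0.00121), a minimum of 50 counts (-0.00522) and all nuclei (-0.0552), Rp1 in cones with all nuclei (-0.027), Fam161a in cones under 1% mitochondrial counts (-0.021), and Rom1 in rods with nuclei of at least 1000 UMIs (0.00617) and under 1% mitochondrial counts (0.0331). The cause of these was not tested. Rods ranked first for 8 of 9 genes under the 6 alternatives that change the nuclei and without each library, and for 7 by the thinned share of nuclei. With all nuclei, levels in cones moved by more than 1 SD for Prph2 (431 CPM), Rp1 (559.9 CPM), Rpgr (179 CPM). No paired analysis was made, since by the paper each mouse had either saline or IL-27 in 1 eye and its other eye was not injected. With 3 libraries a group, the size of change that could have been detected in the set was not estimated, and most of the set was too low to be tested in endothelial cells, astrocytes and pericytes.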

Other observations

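Clusters to which the marker lists gave no single type also held genes of the set. In the unnamed cluster led by Hs3st2, Fat4, Nxph1 and Tacr3 (669 nuclei), Rpgrip1 stood at 691, 674 and 738 CPM with saline and 701, 712 and 559 CPM with IL-27. The mean was 25.97% of the rod level, against at most 14.1% for the 8 rod markers there. A cluster of 152 nuclei that scored for the BC markers (1.56) and next for the rod markers (1.34) was set aside as mixed. In it Rpgrip1 stood at 613 CPM, Rp1 at 433 CPM and Prph2 at 251 CPM (means of 6 libraries). As a share of the rod level, Rp1 and Prph2 exceeded every rod marker in 0 of 32 clusters other than rods and cones. The part of rod RNA in the mixed cluster was not tested. Both clusters were picked after their values were seen and were in no comparison.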
